A study of Mus musculus with 6 samples.

Results

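Of the 45703 genes in the deposited table, 10 are described here: the 4 platelet-derived growth factor (PDGF) ligand genes Pdgfa, Pdgfb, Pdgfc and Pdgfd, the receptor genes Pdgfra and Pdgfrb, the vascular endothelial growth factor (VEGF) ligand genes Vegfa, Vegfb and Vegfc, and Flt1, which encodes a VEGF receptor. They were found by gene symbol, and each matched 1 row. The material was a single group of 6 replicate cultures. Wild type C57BL/6 mice of 4 to 6 weeks gave the dorsal root ganglia (DRG), which hold the cell bodies of sensory neurons with their glia. The dissociated cells grew for 7 days on poly-L-lysine in medium with 10% fetal calf serum, EGF (10 ng/ml) and FGF (10 ng/ml), growth factors that act on other receptor families, and RNA of 2 dishes was combined for each sample. Untreated or uncultured ganglia are not among the samples, so levels are compared between genes within a library and between replicate cultures. The labels do not say whether the replicates came from separate mice, so the p-values below measure the spread between these 6 samples only.

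PDGFs are secreted dimers that bind receptor tyrosine kinases on mesenchymal cells. PDGF-A and PDGF-C act mainly through the alpha receptor and PDGF-D mainly through the beta receptor, whereas PDGF-B binds both. Pdgfra is widely used as a marker of fibroblasts and Pdgfrb of pericytes and other mural cells. The related VEGF ligands act mainly on endothelium: VEGF-A binds the products of Flt1 and Kdr, VEGF-B binds that of Flt1, and VEGF-C binds that of Flt4. Schwann cells can release PDGFs and VEGF-A, and PDGFs are known mitogens of fibroblasts, pericytes and cultured Schwann cells.

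The libraries held from 20070639 to 22968642 counts. The marker genes of neurons and glia that the tissue should hold were present, with Tubb3 at 458 ± 100.4 CPM and Sox10 at 652 ± 87.5 CPM (SD, n = 6), where CPM is the read count scaled to the total of its library. The replicates differed in markers of other cell types. Replicate 1 was the lowest and replicate 5 the highest in the summed CPM of 7 fibroblast markers (3335 and 13868), 8 mural markers (150.2 and 1205), 8 endothelial markers (13.6 and 136) and 7 macrophage markers (14.1 and 126). Single markers did not all follow these sums. Replicate 5 was the highest library for 6 of the fibroblast, 5 of the mural, 8 of the endothelial and 4 of the macrophage markers. It was the highest for 29.2% of the 14998 genes that passed a low-count filter. Acta2 alone held 836 of the 1205 mural CPM in replicate 5. The sum of 7 glial lineage markers was lowest in replicate 5, at 4216 CPM, and highest in replicate 2, at 6067 CPM, although Fabp7 of that list was highest in replicate 5. Of the endothelial markers, the cadherin gene Cdh5 was the most abundant, at 24.5 ± 25.9 CPM (SD, n = 6), and Cldn5, a tight junction gene, was the least, at 0 counts in 3 of the 6 libraries. In bulk libraries, fewer cells of a type and less RNA per cell cannot be told apart. For several results that rest on replicate 5, the value without it is also given.

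All 10 genes were expressed. A level of at least 1 CPM in all 6 libraries was reached by 9 of them, against 30.4% of all genes in the table, and Vegfc missed it through replicates 1 and 3. Levels are compared between genes as CPM per kilobase of combined exon length (CPM per kb). On that scale the mean order was Pdgfrb (35.0), Pdgfa (19.5), Vegfa (13.5), Vegfb (8.79), Pdgfb (3.80), Pdgfra (3.74), Pdgfc (2.98), Pdgfd (1.39), Vegfc (1.11) and Flt1 (0.710). The first 4 lay above the median of 7.20 CPM per kb over the 14998 genes tested. Between neighbours in this order, 3 of 9 steps held their direction in all 6 libraries, namely those from Pdgfrb to Pdgfa, from Vegfb to Pdgfb and from Pdgfc to Pdgfd. Each of these had a two-sided exact sign-flip permutation p of 0.031, the smallest that 6 libraries allow, and an adjusted p of 0.0938 over the 9 steps, so 0 of 9 passed the correction. The order was set by the means of these same 6 libraries, so the test is no independent check of it. Pdgfb, Pdgfra and Pdgfc could not be ranked: Pdgfb exceeded Pdgfra in 4 of 6 libraries, and Pdgfra was below Pdgfc in 4 of 6, with a mean log2 difference of -0.34 ± 1.21 (SD, n = 6), although its mean level was the higher through replicates 4 and 5.

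The ranking also depends on the length used. The combined exon length was 3.11 times that of the longest coding GENCODE transcript for Pdgfa, 3.57 times for Pdgfb and 1.99 times for Flt1, and 0.768 times for Vegfc. With that transcript as the length, Pdgfa stood first at 60.6 ± 4.39 and Pdgfb stood at 13.6 ± 7.51, above Vegfb at 8.80 ± 1.52, Flt1 stood at 1.42 ± 0.897, above Vegfc at 0.855 ± 0.917, and Pdgfrb came second at 39.4 ± 14.2 (CPM per kb, SD, n = 6).

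**Figure D1:**
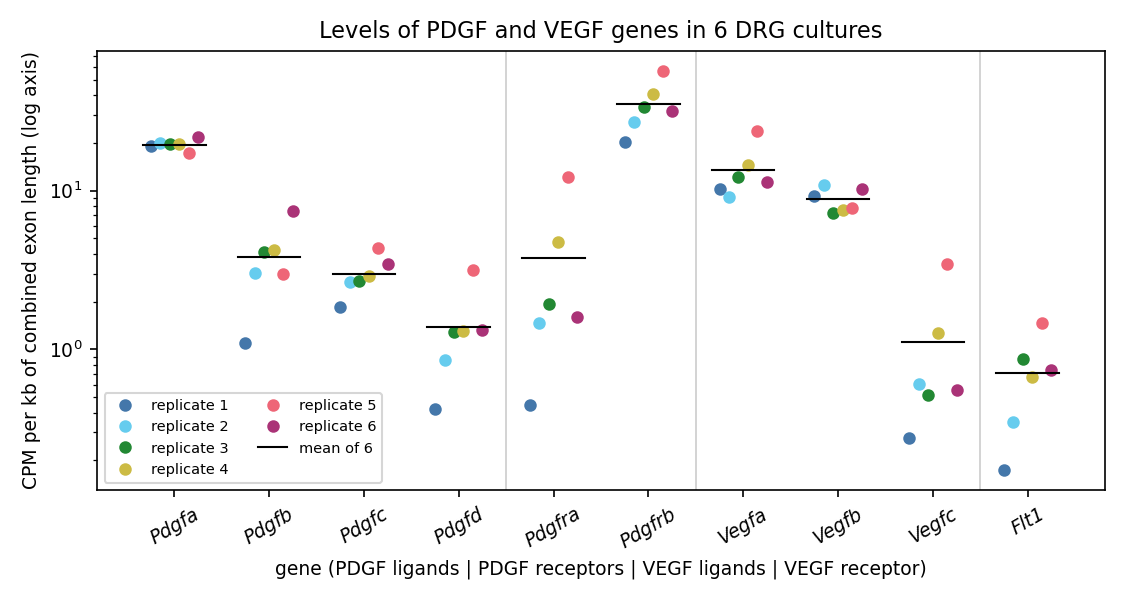
Level of each gene in the 6 cultures, as CPM per kb of combined exon length on a log axis, with 1 point a culture and a bar at the mean of the 6. Pdgfrb and Pdgfa were the most abundant, the points of Pdgfa lie between 17.2 and 21.6, and those of Pdgfra run from 0.450 in replicate 1 to 12.3 in replicate 5.

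Among the ligands for the PDGF receptors, Pdgfa was both the most abundant and the steadiest. Its CPM was 122, 127, 125, 125, 110.5 and 139 in replicates 1 to 6. The lowest library was replicate 5 and the highest replicate 6, and the mean was 125 ± 9.04 (SD, n = 6). The coefficient of variation was 7.24%, where counting alone would give 1.93%. Pdgfa was counted in fractions in all 6 libraries, and how the authors' counting split such reads is not given in the sources used here, so its level carries that uncertainty.

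Pdgfb, whose product binds both PDGF receptors, was highest in replicate 6, as Pdgfa was, but varied far more. Its CPM was 11.5, 31.6, 43.3, 44.4, 31.2 and 78.1 in replicates 1 to 6. Replicate 1 was the lowest and replicate 6 stood 6.80 times above it, whereas replicate 5 lay close to replicate 2.

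Pdgfc and Pdgfd encode ligands that are secreted in a latent form and need a protease to become active. Pdgfc was at 6.66, 9.52, 9.65, 10.4, 15.6 and 12.3 CPM in replicates 1 to 6. Pdgfd was at 1.52, 3.10, 4.66, 4.73, 11.4 and 4.83 CPM. Both were lowest in replicate 1 and highest in replicate 5, and the excess of replicate 5 over the next library was 1.27 times for Pdgfc and 2.36 times for Pdgfd. With 35 counts in replicate 1 and 239 in replicate 5, the exact 95% binomial intervals of Pdgfd were 1.06 to 2.12 and 10.0 to 12.96 CPM and did not overlap; such intervals cover counting error only.

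Within libraries, Pdgfa exceeded Pdgfb by 2.52 ± 0.83 and Pdgfc by 2.71 ± 0.43, and Pdgfc exceeded Pdgfd by 1.22 ± 0.50 (log2 of CPM per kb with a pseudocount of 0.1, SD, n = 6; all 6 libraries on the same side, two-sided exact sign-flip p = 0.031, adjusted p = 0.0357 over 8 pairs of genes compared by role). The difference of Pdgfc and Pdgfd was also 1 of the 9 neighbour steps, where the adjusted sign-flip p was 0.0938. The same difference thus passed in 1 family of tests and not in the other. Every role pair that passed had the smallest p that 6 libraries allow, so its adjusted p depends on which pairs were compared. Of the summed CPM per kb of the 4 ligand genes, Pdgfa held 71.2% ± 8.26, Pdgfb 13.2% ± 5.69, Pdgfc 10.7% ± 2.55 and Pdgfd 4.95% ± 3.30 (SD, n = 6). The share of Pdgfa was highest in replicate 1, at 85.0%, and lowest in replicate 5, at 62.2%, although its own level hardly moved. With transcript lengths the shares of Pdgfc and Pdgfd were 3.87% ± 1.14 and 2.07% ± 1.52.

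Of the PDGF receptors, Pdgfrb was the more abundant in every library and Pdgfra the more variable. Pdgfrb was at 124, 165, 206, 246, 347 and 194 CPM in replicates 1 to 6, a mean of 214 ± 77.1 (SD, n = 6). Pdgfra was at 4.09, 13.3, 17.5, 43.1, 111.6 and 14.6 CPM, a mean of 34.0 ± 40.2 (SD, n = 6). Both were lowest in replicate 1 and highest in replicate 5, and the 6 libraries stood in the same order for both genes, 1, 2, 6, 3, 4 and 5. The amplitude differed: the highest library exceeded the lowest 27.3 times for Pdgfra and 2.80 times for Pdgfrb, and without replicate 5 these ratios were 10.5 and 1.98. The mean of Pdgfra rests on replicate 5, since it was 3.74 CPM per kb over all libraries and 2.04 without that library.

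The excess of Pdgfrb over Pdgfra was 3.81 ± 1.04 (log2 of CPM per kb, SD, n = 6; the same sign in every library, exact sign-flip p = 0.031, adjusted p = 0.0357) and 4.14 without replicate 5. As a ratio of CPM per kb it was 45.2, 18.5, 17.5, 8.50, 4.64 and 19.8 in replicates 1 to 6. The alpha receptor thus made up 2.16% of the summed receptor level in replicate 1 and 17.7% in replicate 5, and between 4.81% and 10.5% in the others. A microRNA gene inside Pdgfra, Mir7025, had at most 8.5 counts, and Pdgfra counts were fractional in 3 libraries.

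**Figure D2:**
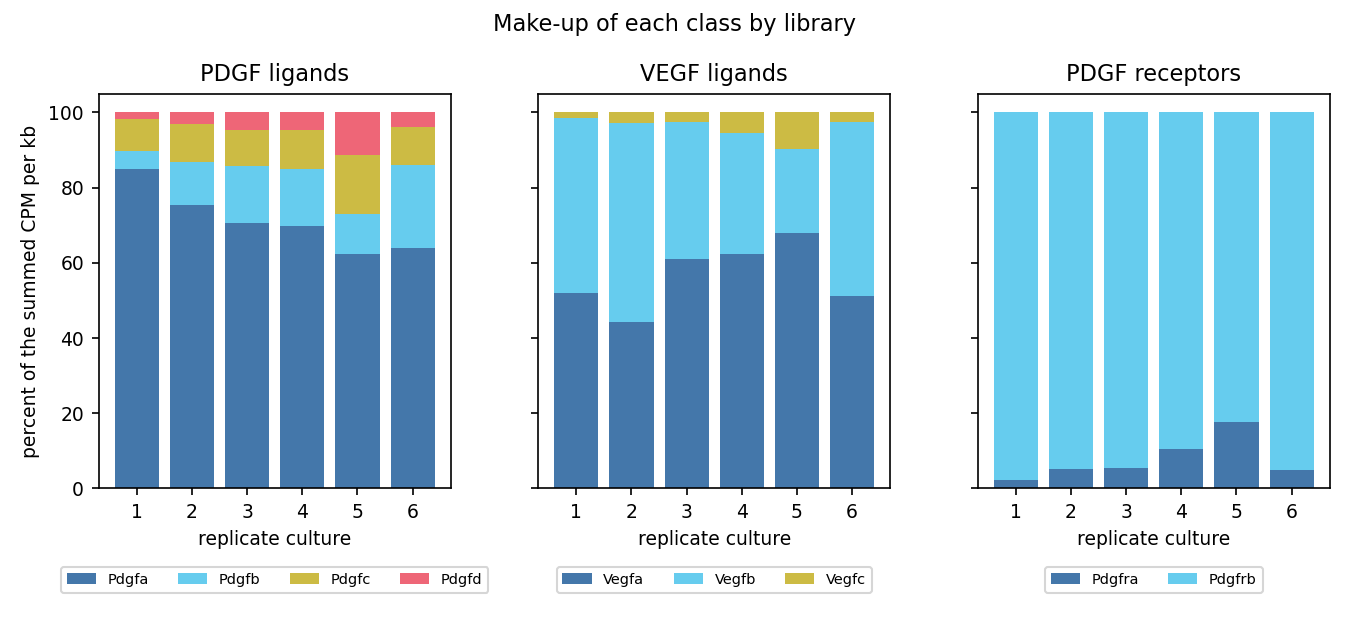
Stacked bars give the percent of the summed CPM per kb of combined exon length held by each gene of a class in each culture, for PDGF ligands, VEGF ligands and PDGF receptors. Pdgfa held most of the PDGF ligand level in all 6 cultures, and Pdgfra ranged from 2.16% of the receptor level in replicate 1 to 17.7% in replicate 5.

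Among the VEGF ligands, Vegfa had the highest mean, Vegfb came next and Vegfc was low. Vegfa, the main angiogenic ligand and a classical target of hypoxia signalling, was at 43.0, 37.8, 50.6, 60.6, 99.4 and 47.2 CPM in replicates 1 to 6. Replicate 5 stood apart at 1.64 times the next library, and the other 5 lay within 1.6 times of each other. Vegfb was at 11.8, 13.8, 9.23, 9.62, 9.98 and 13.1 CPM. Its lowest library was replicate 3 and its highest replicate 2, so it did not share the pattern of Vegfa. Vegfc, a ligand best known from lymphatic vessels, was at 0.522, 1.14, 0.969, 2.39, 6.497 and 1.05 CPM. Its count of 12 in replicate 1 and of 136 in replicate 5 had exact 95% binomial intervals of 0.270 to 0.913 and 5.45 to 7.69 CPM. The mean of Vegfc rests on replicate 5 as well, at 1.11 CPM per kb over all libraries and 0.646 without it.

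Vegfa exceeded Vegfc by 3.85 ± 0.72 in 6 of 6 (log2 of CPM per kb, SD, n = 6; exact sign-flip permutation p = 0.031, adjusted p = 0.0357). Its excess over Vegfb was 0.56 ± 0.67, with 5 of 6 libraries on that side, and did not pass (exact sign-flip permutation p = 0.125, adjusted p = 0.125). The value ran from -0.25 in replicate 2 to 1.6 in replicate 5, and its mean was 0.35 without replicate 5. It passed with transcript lengths, at 0.83, and when CPM was not divided by length, at 2.25 (exact sign-flip permutation, adjusted p = 0.031 for each). Counts are per gene, so the splice forms of Vegfa, which differ in their binding to matrix, cannot be told apart here.

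Flt1 encodes a VEGF receptor with a membrane form and a secreted decoy form, which the counts do not separate. It was at 2.39, 4.78, 11.9, 9.17, 20.1 and 10.3 CPM in replicates 1 to 6. Replicate 1 was the lowest and replicate 5 the highest, at 1.69 times the next library. Kdr, the main signalling receptor for VEGF-A, was lower, at 1.05, 1.05, 0.923, 1.44, 7.55 and 1.15 CPM. Flt4, the receptor for VEGF-C, was at 0.348, 0.592, 0.508, 0.847, 6.45 and 1.10 CPM. Both had their maximum in replicate 5, as did the summed endothelial markers. Flt1 exceeded Kdr by 1.16 ± 0.74 and Flt4 by 1.31 ± 0.70, each in 6 of 6 (log2 of CPM per kb with a pseudocount of 0.1, SD, n = 6; exact sign-flip permutation p = 0.031, adjusted p = 0.0357). Kdr and Flt4 had means of 0.285 and 0.281 CPM per kb, not far above that pseudocount, and the low-count filter did not keep Flt4. The sign of both excesses held under other settings, but their size did not. With a pseudocount of 1 CPM per kb the excesses were 0.41 and 0.42, with transcript lengths 1.78 and 2.24, and without division by length 2.30 and 2.94. The order of libraries differed between Flt1 and Kdr: in replicates 3 and 6 Flt1 stood well above its level in replicate 1, and Kdr did not. The summed endothelial markers were at 29.0 and 30.1 CPM in replicates 3 and 6 against 13.6 CPM in replicate 1. Single endothelial markers did not all share this rise, and 4 of the 8 were lowest in replicate 1. Cdh5, the most abundant, was at 13.1 and 15.8 CPM in replicates 3 and 6 against 2.79 CPM in replicate 1. Pecam1, Egfl7 and Cldn5 were lower in replicates 3 and 6 than in replicate 1, with Pecam1 at 1.11 and 1.24 against 2.18 CPM. The summed mural markers were at 665 and 793 CPM in replicates 3 and 6 against 150.2 CPM in replicate 1. The part of endothelial or mural cells in the level of Flt1 was not tested.

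Sequences are shown for the members with the widest spread between cultures that the promoter table held, Pdgfra, Flt1 and Vegfc, and for Vegfb, which was among the steadiest. They are the 250 bases before the annotated transcription start (RefSeq, GRCm38.p6), at chr5:75152001-75152250 on the plus strand for Pdgfra, chr5:147726012-147726261 on the minus strand for Flt1, chr8:54077282-54077531 on the plus strand for Vegfc and chr19:6987652-6987901 on the minus strand for Vegfb. The Pdgfra and Flt1 windows lie within the span of the gene in the deposited table, and all 4 share 0 bases with any GENCODE M21 exon. They are written 5′ to 3′ along the gene. Capitals mark GC boxes (GGGCGG on either strand) and a TATA box (TATAAA).
Pdgfra: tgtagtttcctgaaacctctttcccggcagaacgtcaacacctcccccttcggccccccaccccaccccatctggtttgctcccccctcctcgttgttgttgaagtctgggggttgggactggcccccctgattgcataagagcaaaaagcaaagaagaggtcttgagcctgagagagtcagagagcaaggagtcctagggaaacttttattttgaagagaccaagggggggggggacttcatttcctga
Flt1: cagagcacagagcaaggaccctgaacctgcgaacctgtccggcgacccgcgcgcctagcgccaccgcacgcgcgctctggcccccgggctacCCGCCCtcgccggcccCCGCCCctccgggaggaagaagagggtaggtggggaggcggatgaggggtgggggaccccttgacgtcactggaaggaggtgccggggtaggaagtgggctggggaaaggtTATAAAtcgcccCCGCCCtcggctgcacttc
Vegfc: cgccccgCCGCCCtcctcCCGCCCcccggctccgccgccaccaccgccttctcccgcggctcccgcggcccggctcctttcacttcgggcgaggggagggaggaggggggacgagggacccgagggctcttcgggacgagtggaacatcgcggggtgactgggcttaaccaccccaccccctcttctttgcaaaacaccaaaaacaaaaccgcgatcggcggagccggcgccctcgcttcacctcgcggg
Vegfb: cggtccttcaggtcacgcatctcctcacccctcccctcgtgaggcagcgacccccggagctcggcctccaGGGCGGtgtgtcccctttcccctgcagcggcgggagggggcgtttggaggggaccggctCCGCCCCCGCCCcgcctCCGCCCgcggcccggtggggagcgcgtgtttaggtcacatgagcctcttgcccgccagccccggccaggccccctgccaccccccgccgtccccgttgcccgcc

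The Pdgfra window held none of the 5 motifs searched on both strands (the GC box GGGCGG, the CCAAT box, the TATA box TATAAA, the hypoxia response core ACGTG and the AP-1 site TGANTCA), and the matches in the other printed windows did not overlap each other. Flt1 held 3 GC boxes and a TATA box 31 bases before the start, Vegfc held 2 GC boxes and Vegfb 4. Over all 32851 promoter windows of the same length, a GC box was present in 32.7%, a CCAAT box in 33.8%, a TATA box in 12.4%, the hypoxia core in 16.6% and the AP-1 site in 6.75%. The G and C content was 54.4% for Pdgfra, 70.4% for Flt1, 71.6% for Vegfc and 76.4% for Vegfb, with a median of 52.4% over all windows. Pdgfra lay near that median, and the other 3, steady or variable, lay well above it. Of the windows not printed, Vegfa held 2 GC boxes and a CCAAT box before its outer start. Its inner window held a GC box, a CCAAT box and the hypoxia core, 211 bases before the start, the only match to that core in the 10 member windows scanned. Those windows belong to 8 of the members, since no window of Pdgfb or Pdgfrb was scanned. The inner Vegfa window, with the hypoxia core, shares 218 of its 250 bases with an annotated GENCODE M21 exon of Vegfa itself. It is thus largely exon sequence by that annotation, unlike the outer window, which shares 0 bases. The 2 Pdgfa windows share up to 86 and 139 bases with an exon. The windows of Pdgfa held 1 and 2 GC boxes, Pdgfd held a TATA box 160 bases before the start, and Pdgfc held none of the 5 motifs. A match is a match of letters and no evidence of binding.

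The next question was whether these genes differed between the replicate cultures beyond counting noise. Counts were set against expectations from TMM-scaled library sizes in a chi-square test, which, adjusted by the Benjamini-Hochberg method over all 14998 genes, called 10 of 10 members, where it called 76.3% of all genes. The weakest member was Vegfb (adjusted p = 1.03e-07 in the chi-square test). All 10 were also called with any single replicate left out. Against genes of like abundance, edgeR's quasi-likelihood fit called 0 of 10 members and 0% of all genes at an adjusted p under 0.05. At an unadjusted p under 0.05 it held 7 of 10 members (Pdgfb, Pdgfd, Pdgfra, Pdgfrb, Vegfa, Vegfc and Flt1), against 5.39% of all genes. The prior degrees of freedom of that fit were 2.49, so a gene that misses its threshold may still vary more than its peers.

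The size of the spread differed widely among the members. The SD of log2 CPM over the 6 cultures (TMM-scaled, pseudocount 0.5) was 1.56 for Pdgfra, 0.98 for both Flt1 and Vegfc, 0.89 for Pdgfb, 0.82 for Pdgfd, 0.49 for Pdgfrb and 0.48 for Vegfa. These 7 lay among the 10% of tested genes with the largest SD. Pdgfc (0.38) and Vegfb (0.26) lay above the median of 0.16 over all tested genes, and Pdgfa (0.12) below it. The median over the 10 members was 0.66. An SD of at least 1 was reached by 1 member, Pdgfra, against 1.87% of tested genes. Without replicate 5, 5 of 10 were among the top 10%, Pdgfrb and Vegfa falling out, and the medians were 0.45 for the members and 0.14 for all tested genes. The SD without that library was 1.15 for Pdgfra, 0.86 for Flt1, 0.53 for Vegfc, 0.59 for Pdgfd, 0.36 for Pdgfrb and 0.23 for Vegfa, and that of Pdgfb rose to 0.99. The members were picked with results of these libraries known, so these counts are a description.

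**Figure D3:**
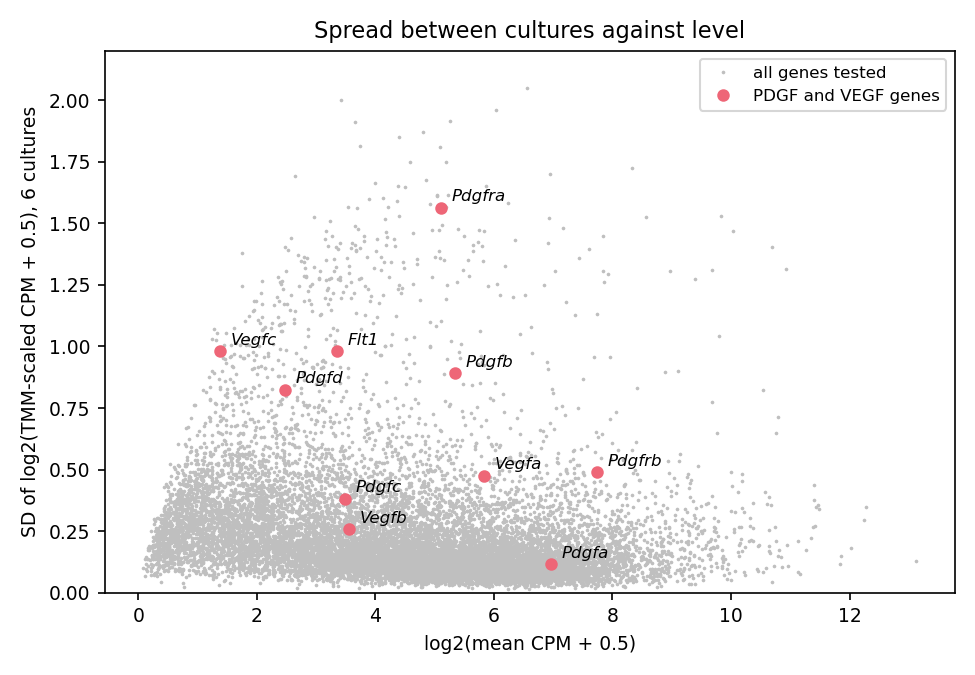
SD of log2 CPM over the 6 cultures against log2 mean CPM, with grey points for the 14998 genes tested and red points for the 10 PDGF and VEGF genes. Pdgfra is near the upper edge of the cloud with an SD of 1.56, and Pdgfa lies inside its dense lower part at 0.12.

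Most members moved along the same axis between cultures. The highest library was replicate 5 for 7 of 10 members (Pdgfc, Pdgfd, Pdgfra, Pdgfrb, Vegfa, Vegfc and Flt1), against 29.2% of tested genes. The lowest was replicate 1 for 7 of 10 (Pdgfb, Pdgfc, Pdgfd, Pdgfra, Pdgfrb, Vegfc and Flt1), against 23.8%. Both held for 6 of 10, against 12.9% of tested genes. Pdgfa and Vegfb departed from it, with replicate 5 the lowest of the 6 for Pdgfa and near the middle for Vegfb. Pdgfb shared the low replicate 1 but not the high replicate 5. In 4 of 10 members (Pdgfd, Pdgfra, Vegfa and Vegfc) replicate 5 stood apart from the other 5 libraries by Dixon's gap-to-range ratio, against 6.98% of tested genes with any library apart and 2.97% with replicate 5 on top. This ratio was taken on unlogged CPM, where high values are stretched, and was not computed on log2 CPM, so the flags hold for that scale only.

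**Figure D4:**
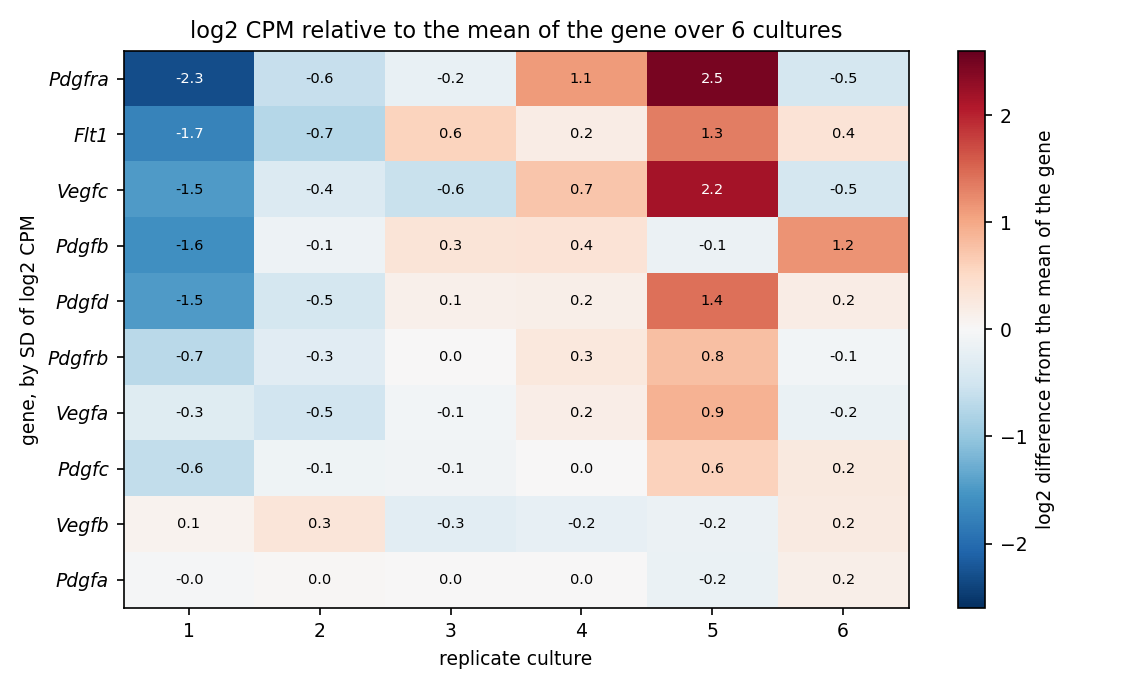
log2 CPM of each gene in each replicate relative to the mean of that gene over the 6 cultures, ordered by SD, with red above and blue below the mean. The upper rows run from blue in replicate 1 to red in replicate 5, Pdgfb peaks in replicate 6, and the rows of Pdgfa and Vegfb stay near 0.

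Of 5 relations across libraries, 4 passed for Pearson's r. Pdgfra and Pdgfrb, the alpha and beta receptors, had r = 0.99 (exact permutation p = 0.00139, adjusted 0.00694 over 5 relations). The libraries had the same order for both, with a Spearman's rho of 1.00 (exact permutation p = 0.00278, adjusted 0.0139). Leaving out replicates 1 and 5, which lay farthest from the median of Pdgfra, gave r = 0.93. Without replicate 5 alone it was 0.98.

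Pdgfra and the mean log2 CPM of the 7 fibroblast markers, which include the collagen genes Col1a1 and Col3a1 and the proteoglycan gene Dcn but no member, had r = 0.99 (exact permutation p = 0.00417, adjusted 0.0104) and rho = 0.94 (exact permutation p = 0.0167, adjusted 0.0417). The relation was 0.97 without replicates 1 and 5. Pdgfrb and the 8 mural markers, among them Rgs5, Acta2 and Myh11, had r = 0.91 (exact permutation p = 0.0167, adjusted 0.0208) and rho = 0.77 (exact permutation p = 0.103, adjusted 0.103), and r = 0.69 without replicates 1 and 5. For this pair the rank measure did not pass. Flt1 and the 8 endothelial markers had r = 0.78 (exact permutation p = 0.0722, adjusted 0.0722) and rho = 0.83 (exact permutation p = 0.0583, adjusted 0.0729), with r = 0.49 without replicates 1 and 5. That relation did not pass, although r was 0.81 with an adjusted exact permutation p of 0.0361 at a pseudocount of 2 CPM. Each of these members was set against a single marker list. The fibroblast, mural and endothelial scores were all lowest in replicate 1 and highest in replicate 5. Whether a member follows another list more closely was not tested, so no pairing is shown to be particular to its cell type.

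Vegfa ran against the glial lineage markers, with r = -0.94 (exact permutation p = 0.00972, adjusted 0.0162) and rho = -0.83 (exact permutation p = 0.0583, adjusted 0.0729). It was -0.70 without replicates 2 and 5, and -0.81 without replicate 5. The glial markers did not all share this direction. Fabp7, the only one of them to peak in replicate 5, was at 31.8 CPM in replicate 1 and 53.8 CPM in replicate 5. The glial score spanned a narrow range, from 7.94 in replicate 5 to 8.43 in replicate 2, while the fibroblast score spanned 5.35 to 8.04. All these measures come from the same 6 libraries, and a share of reads taken by one cell type lowers that of the others. The part of cell composition in each relation was not tested, and the labels give no batch within which to recompute it.

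**Figure D5:**
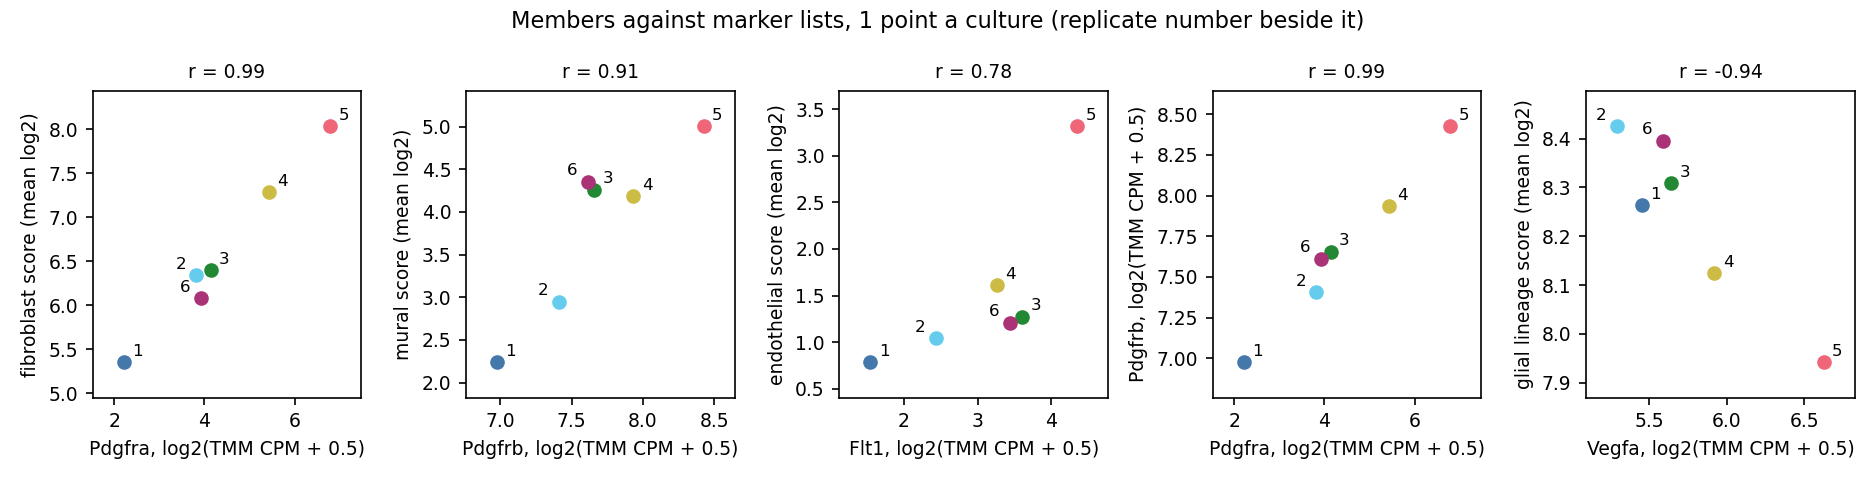
Each panel sets log2 TMM-scaled CPM of a member on the x axis against the mean log2 CPM of a marker list, or against Pdgfrb, on the y axis, with 1 numbered point a replicate culture. Pdgfra rises with the fibroblast score and with Pdgfrb in nearly the same order of cultures, and Vegfa falls as the glial lineage score rises, with replicate 5 at the end of every panel.

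The genes whose profile over the 6 libraries lay nearest to a member were found for the 4 members of largest SD, among 11924 other genes with a mean of at least 5 CPM, by the root-mean-square difference of centred log2 CPM. For Pdgfra they were Enpep (0.13), Cx3cl1 (0.16), Slco2a1 (0.22), Itga11 (0.23) and Dcn (0.24). Dcn, which encodes the matrix proteoglycan decorin, was at 29.3 CPM in replicate 1 and at 461 CPM in replicate 5. For Flt1 they were Notch3 (0.13), Hs6st2 (0.15), Tgfb3 (0.16), Mrvi1 (0.18) and Mef2c (0.18). Notch3 is on the list of mural markers. For Vegfc they were Emilin1 (0.15), Thbs2 (0.16), Bdkrb2 (0.16), Tiam1 (0.17) and Kcnk2 (0.19). For Pdgfb the nearest genes lay farther off, with Crym at 0.24, Fndc1 and Fbln5 at 0.31 each, C3 at 0.31 and Spata18 at 0.34.

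A list of 32 further genes of these pathways was examined. The low-count filter kept 29 of them, and all 29 varied beyond counting noise by the chi-square test, against 76.3% of all tested genes; the count was 28 with unscaled library totals. Among the further receptors and ligands on the VEGF side (Kdr, Flt4, Nrp1, Nrp2, Pgf and Vegfd), Nrp1 and Nrp2, the neuropilins that bind VEGFs and semaphorins, were abundant, at 241 ± 45.2 and 109 ± 28.7 CPM (SD, n = 6). The ligand genes Pgf and Vegfd were scarce, at 2.96 ± 2.55 and 3.72 ± 2.64 CPM (SD, n = 6). Of the 6 genes in this class 5 were highest in replicate 5, against 29.2% of tested genes. The exception was Nrp2, which was highest in replicate 1. The low-count filter did not keep Flt4 and Pgf, and 3 of the 4 genes it kept were highest in replicate 5.

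Among the enzymes and cofactors that process the ligands, Plat, whose product tissue plasminogen activator can activate PDGF-C, was the most abundant and steady, at 380 ± 28.8 CPM (SD, n = 6). Furin, a convertase that acts on PDGF and VEGF-C precursors, was at 188 ± 19.1 CPM. Plau, whose product urokinase can activate PDGF-D, was at 4.27, 11.2, 25.6, 37.7, 52.7 and 14.2 CPM in replicates 1 to 6, lowest in replicate 1 and highest in replicate 5 like Pdgfd itself. St14, which encodes matriptase, another activator of PDGF-D, had at most 16 counts. Ccbe1, a cofactor of VEGF-C processing, was at 0.479, 1.78, 1.25, 8.67, 21.2 and 1.34 CPM, and its order of libraries began and ended with the same replicates as that of Vegfc.

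Of the 7 oxygen-sensing genes upstream of Vegfa, Hif1a, Epas1 and the scarce Egln3 differed most between cultures. Hif1a, the hypoxia-inducible factor, was at 115.5, 117, 135, 164, 235 and 129 CPM in replicates 1 to 6, with its maximum in replicate 5 like Vegfa. Epas1, a related factor, was at 65.6, 95.8, 110.4, 114, 77.6 and 155 CPM, with its maximum in replicate 6 and replicate 5 second lowest. Arnt, the partner of both, was at 93.0 ± 5.82 CPM, and the oxygen sensor gene Egln1 was at 77.4 ± 6.19 CPM (SD, n = 6). Egln3, a sensor gene that hypoxia is known to induce, was scarce, at 0.522 CPM in replicate 1 and 4.87 CPM in replicate 5, with 1.05 to 1.63 CPM in the other libraries. Transcript levels say nothing of the stability of the HIF proteins.

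Among the genes that act just below the receptors, the adaptor gene Grb2 (115 ± 6.47 CPM), the phosphatase gene Ptpn11 (285 ± 13.3 CPM) and the ubiquitin ligase gene Cbl (152 ± 7.16 CPM) were steady (SD, n = 6). The most variable of this class was Plcg1, the gene of a phospholipase, at 41.5 CPM in replicate 5 and from 20.4 to 26.4 CPM in the others. Shc1, an adaptor gene, was at 159 CPM in replicate 5 and from 85.7 to 111 CPM in the others, and Pik3r1, a regulatory subunit gene, was lowest in replicate 5, at 220.5 CPM, with 260.5 to 346 CPM elsewhere. The median SD of log2 CPM was 0.11 over these 8 genes, below the 0.16 of all tested genes, and 0.94 over the 6 VEGF-side receptors and further ligands, of which Nrp1 (0.25) and Nrp2 (0.38) had the smallest. The 0.94 includes Flt4 (1.10) and Pgf (1.02), which the low-count filter did not keep, so they are not among the tested genes. Kdr and Vegfd, which it kept, had 0.95 and 0.92. These medians were not matched for abundance. Of other genes whose products bind PDGF, Sparc was at 8916 ± 652 CPM and Lrp1 at 541 ± 158 CPM (SD, n = 6), and Lrp1 was lowest in replicate 1 and highest in replicate 5.

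The members lie on 8 chromosomes of GRCm38.p6. Pdgfra spans 75151322 to 75198206 on chromosome 5, which also holds Pdgfa at 138976014 to 139000792 and Flt1 at 147561604 to 147726438. Pdgfrb lies on chromosome 18 at 61045127 to 61085067, Pdgfb on 15 at 79995865 to 80024614, Pdgfc on 3 at 81036416 to 81214040 and Pdgfd on 9 at 6168363 to 6534284. Vegfa lies on 17 at 46016993 to 46032377, Vegfb on 19 at 6982472 to 6987651 and Vegfc on 8 at 54077532 to 54186454. Genes that overlap Pdgfd, Vegfc and Flt1 on the opposite strand (Ddi1, Gm33153 and Gm35383) had at most 1 count in any library, and the strand setting of the counting is not given in the sources used here.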

How the data were processed

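RNA was sequenced from 6 replicate DRG cultures, with poly-A libraries made from 500 ng of total RNA of integrity number 8.7 or more and 15 cycles of PCR, per the labels' protocols. The authors deposited 1 table of estimated counts per gene, unscaled, with a small part of the counts fractional. Per the submitters' processing notes, bcl2fastq 2.20.0.422, cutadapt 2.5, STAR 2.7.2b and featureCounts 1.6.4 of the Subread package were used with GRCm38.p6; their settings, including strand and shared reads, are not given in the sources used here. Other per-sample columns numbered 0. The combined exon length in bases came from the deposited table (the other unit used), and coordinates matched RefSeq for 10 of 10 members.

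CPM used library totals. Counts were rounded to whole numbers, which edgeR (4.0.16) and the alternative size factors of DESeq2 (1.42.0) need, under R 4.3.3, then filtered with filterByExpr and scaled by TMM. On simulated counts, the chi-square test recovered 189 of 200 genes doubled in 1 library among 14932 tested, with 9 other calls. Differences between genes were taken within libraries and tested by exact sign flips over 64 patterns; relations used exact permutation over 720 pairings (numpy 2.4.6, scipy 1.17.1). Adjustment was by the Benjamini-Hochberg method within 8 role pairs, 9 neighbour steps and 5 relations. Named genes were the 10 members, the pathway and marker lists and the 5 nearest profiles of the 4 most variable members; of the lists, genes that a result turned on and extremes were named. Members and lists were chosen with earlier results of these data known. Transcript lengths and the exons set against promoter windows were from GENCODE M21.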

Additional observations from a re-analysis of the deposited data

Results flagged for a closer look

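In 4 of the 10 members 1 library stood apart: its distance to the nearest other library, as a part of the range of the 6, exceeded Dixon's 95% critical value for 6 samples. The ratio was 0.687 for Vegfc, 0.666 for Pdgfd, 0.637 for Pdgfra and 0.630 for Vegfa, each on the CPM scale, and replicate 5 was the highest library in all 4. Chance flags about 1 in 20 groups; over all 14998 tested genes the share was 6.98%, and 2.97% of tested genes were flagged with replicate 5 on top. The 8 differences between role pairs, which are on a log2 scale, were measured by the same ratio and none exceeded the value. The ratio of the members was not computed on log2 CPM, so the members and the pairs are not on a like scale. Replicate 5 also had the highest summed fibroblast, mural, endothelial and macrophage markers and the lowest summed glial and neuronal markers. Single markers departed from most of these sums. Fabp7 of the glial list was highest in replicate 5, and Prph, Rbfox3 and Elavl4 of the neuronal list were lowest in replicate 2. Of the lists highest in replicate 5, 6 of 7 fibroblast, 5 of 8 mural, 8 of 8 endothelial and 4 of 7 macrophage markers peaked there. Over all tested genes that share was 29.2%. The part of these cell types in the 4 values was not tested.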

How the results depend on the processing

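Among alternatives with a test, 53 values kept their direction and side of the threshold, 3 newly passed and 4 reversed. A further 132 values, each without 1 replicate, kept their direction, and 38 counts of genes stayed within 1.5 times. Transcript lengths in place of combined exon lengths, chosen after seeing the data, reversed the steps from Pdgfrb to Pdgfa (-0.69), from Vegfb to Pdgfb (-0.43) and from Vegfc to Flt1 (-0.84), in log2, and moved that from Pdgfra to Pdgfc from -0.34 to 0.031. The excess of Vegfa over Vegfb passed at 0.83 with transcript lengths and at 2.25 without division by length, and Flt1 with the endothelial score passed at r = 0.81 with a pseudocount of 2 CPM. With 5 libraries the sign-flip p cannot reach the 0.05 threshold, so values without a replicate carry no test. Without the low-count filter, 13488 of 26854 genes and 10 of 10 members varied beyond counting noise, against 11444 of 14998 genes. Leaving out replicates one at a time gave 5 to 7 members among the 10% most variable genes, the lowest without replicate 5. All samples belong to 1 group, so no paired comparison between groups was possible, and only the differences between genes were paired, within libraries. Counts as low as 12 limit the precision of Vegfc.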

Other observations

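Nrp2 ran opposite to most members, at 158 CPM in replicate 1 and at 79.4 CPM in replicate 5, while its relative Nrp1 was at 219 and 327 CPM in those libraries. The neuropilins were far more abundant than the VEGF receptor genes Flt1, Kdr and Flt4 in these cultures, with means of 25.0 and 13.4 CPM per kb for Nrp1 and Nrp2 against 0.710, 0.285 and 0.281 CPM per kb.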
